A study of Mus musculus with 15 samples.

Results

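Chaperones of the cytosol, mitochondria and endoplasmic reticulum (ER) were followed across 15 whole ovaries. They were chosen by gene symbol, as every gene named Hspa, Hspb, Hspd, Hspe, Hsph or Hsp90, Dnaja, Dnajb or Dnajc, or Cct2 to Cct8, with at least 10 normalised reads in at least 5 of the 15 libraries. The rule on names found 82 of the 24656 genes listed, and 76 of those passed the filter on low values, which 17569 genes passed in all. The 76 comprised 26 Dnajc, 14 Hsp70 or Hsp110, 11 Dnajb, 8 CCT, 6 small heat shock protein, 4 Dnaja, 4 Hsp60 or Hsp10 and 3 Hsp90 genes. Just inside the filter were Hspe1-ps2 and Cct3-ps1, each at 10 or more in 7 libraries, and just outside was Hspa1l, at 10 or more in 4 libraries. The others left out were Cct6b, Dnajc22, Dnajb7, Hspd1-ps4 and Hspe1-ps3, none of which reached 10 in any library, and 73 of the 76 reached 10 in all 15. Of the 76, 5 are listed as pseudogenes by their symbols, namely Cct3-ps1, Dnajc19-ps, Hspd1-ps3, Hspe1-ps2 and Hspa9-ps1.

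The mice were UM-HET3, a stock derived by intercrossing several inbred strains in which no pair of animals is genetically identical. At 6 months of age they had been randomised to canagliflozin from 6 to 12 months and study at 12 months, to control and study at 12 months, or to control and study at 6 months, with 5 libraries in each group. Canagliflozin is a drug that blocks the renal glucose transporter SGLT2. Each library was poly(A)-selected RNA of 1 ovary of 1 mouse, so replicates are animals, and replicate numbers only name them. Of the 3 groups, only the 12-month ones have their RNA extraction described in the labels. Gene-level reads recovered from the scaled table, which differ from the sequencing depth the labels state, were 8.47 to 13.0 M reads in canagliflozin libraries, 11.3 to 13.1 M in 12-month controls and 11.8 to 13.6 M in 6-month controls (M, 1000000 reads). Markers of ovarian cells were present throughout, with summed granulosa markers at 37589 to 82995, 36723 to 75211 and 21984 to 47013 normalised reads in the canagliflozin, 12-month and 6-month groups and oocyte markers at 1606 to 2969.5, 2457 to 3729 and 2603 to 3876. Mitochondrially encoded transcripts took 4.84 to 9.37% of reads in canagliflozin libraries, 3.70 to 4.46% in 12-month controls and 2.72 to 3.19% in 6-month controls. The groups also differed in base composition: within each library the median of the GC-poorest 20% of genes minus that of the GC-richest 20% (log2, relative to the mean over libraries) was -0.17 to 0.18 in canagliflozin libraries, 0.02 to 0.25 in 12-month controls and -0.24 to -0.11 in 6-month controls. In whole tissue, fewer cells of a type and less RNA per cell cannot be told apart.

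Chaperones bind unfolded or partly folded proteins and release them in cycles, most of them driven by ATP. Hsp70 proteins do so with J-domain partners (the Dnaj families), which deliver clients and trigger ATP hydrolysis, and with exchange factors such as the Hsp110 proteins, which reset the cycle. Hsp90 dimers act later on signalling clients, among them the steroid receptors on which the ovary depends. The CCT ring folds actin and tubulin in the cytosol, Hspd1 with its lid Hspe1 does so for imported proteins in mitochondria, and Hspa5 (BiP) with Hsp90b1 (GRP94) serves secreted and membrane proteins in the ER. Small heat shock proteins hold unfolded proteins without ATP.

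Between canagliflozin ovaries and 12-month controls no chaperone gene was called, at a limma Benjamini-Hochberg adjusted p under 0.05 over all 17569 genes. In that comparison 1 gene was called in all (0.00569%). At an unadjusted p under 0.05, 3 of the 76 chaperone genes (3.95%) passed, Dnajc27, Dnajc3 and Dnajc19-ps, beside 9.2% of all genes, and edgeR and DESeq2 on recovered reads also called 0 of the 76. The groups did not overlap for 1 of the 76, Dnajc27, beside 1.05% of all genes. The median log2 fold change of canagliflozin over 12-month controls was 0.00 over the 76 and 0.00 over all genes.

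Between 12-month and 6-month controls, 9 of the 76 were called (11.8%), beside 12.4% of all genes. Hspa2, Hspa12b, Hsp90ab1, Cct5, Dnajc16, Dnajc18 and Dnajc28 fell (7 of 76, 9.21%, beside 7.01% of all genes) and Dnajb14 and Dnajc21 rose (2 of 76, 2.63%, beside 5.4%). The share called in either direction together was near that of all genes. The age groups did not overlap for 10 of the 76, beside 13.7% of all genes: Cct5, Dnajb11, Dnajb14, Dnajc14, Dnajc16, Dnajc19, Dnajc28, Hspa14, Hspa2 and Hsp90ab1. Median log2 fold changes of 12-month over 6-month controls were -0.03 over the 76 and 0.00 over all genes. Between canagliflozin ovaries and 6-month controls, 27 of the 76 (35.5%) were called, beside 28.4% of all genes, 10 higher (13.2%, beside 13.5%) and 17 lower (22.4%, beside 14.9%). That comparison shares its canagliflozin and its 6-month libraries with the other comparisons, so its values are given beside theirs and add no independent count.

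**Figure D1:**
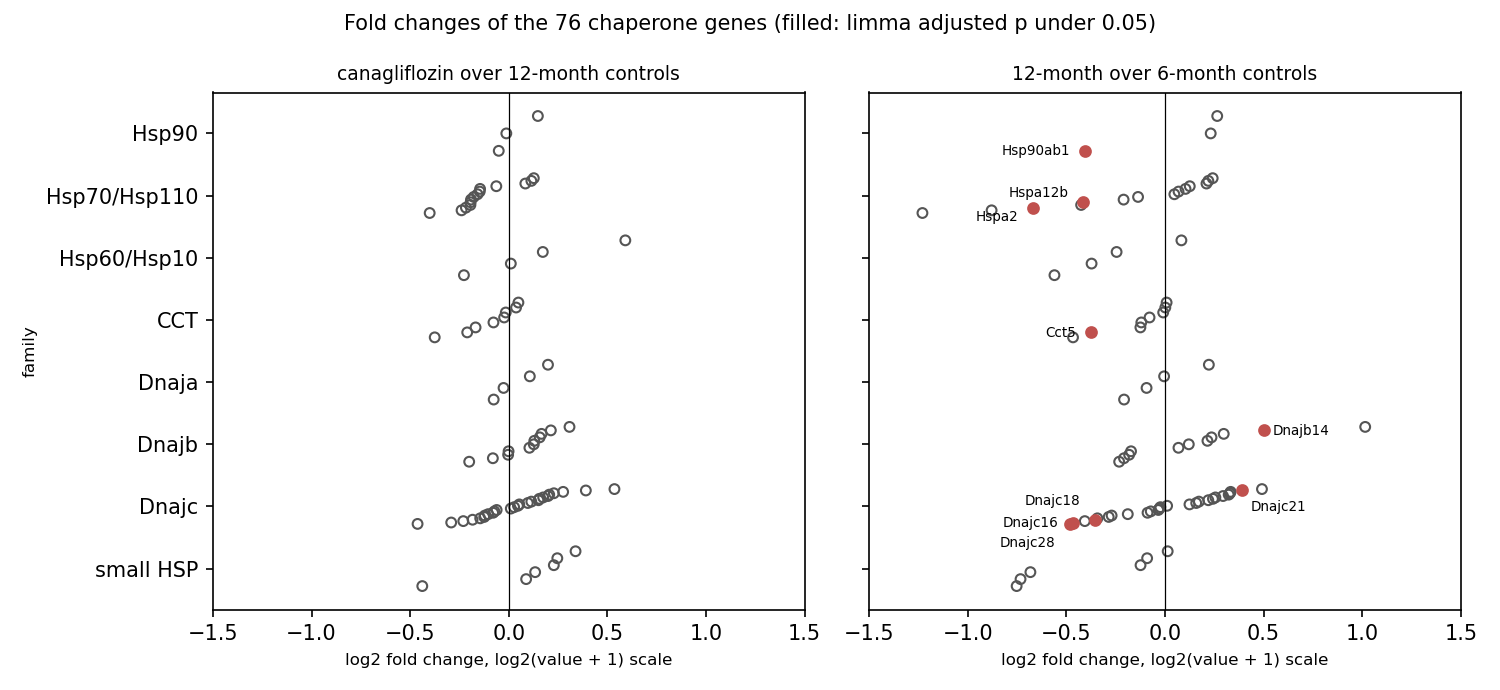
Log2 fold change (log2(value + 1) scale) of each of the 76 chaperone genes, grouped by family down the page, for canagliflozin over 12-month controls (left) and 12-month over 6-month controls (right). Filled points are genes with a limma adjusted p under 0.05, of which there are 0 on the left and 9 on the right. Most points lie between -0.5 and 0.5 in both panels.

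By family, the medians of canagliflozin over 12-month controls ran from -0.17 (Hsp70 and Hsp110, 11 of 14 genes negative) to 0.18 (small heat shock proteins, 5 of 6 positive). For 12-month over 6-month controls they ran from -0.40 (small heat shock proteins, 5 of 6 negative) to 0.23 (Hsp90, 2 of 3 positive). The largest log2 fold changes for canagliflozin over 12-month controls, none of them called, were those of Hspe1-ps2 (0.59), Dnajc6 (0.54), Dnajc19-ps (0.39), Hspb6 (0.34) and Dnajb1 (0.31) upwards and Dnajc27 (-0.46), Hspb8 (-0.44), Hspa9-ps1 (-0.40), Cct3-ps1 (-0.38) and Dnajc15 (-0.29) downwards. For age the largest downward values were those of Hspa1b (-1.23), Hspa1a (-0.88), Hspb6 (-0.75), Hspb7 (-0.73) and Hspb8 (-0.68), none called, and the largest upward ones those of Dnajb13 (1.01), Dnajb14 (0.50), Dnajc17 (0.49), Dnajc21 (0.39) and Dnajc19 (0.33), of which Dnajb14 and Dnajc21 were called. By compartment, the age medians were 0.00 for 28 cytosolic and nuclear genes, of which 1 rose and 3 fell, 0.10 for 13 ER genes, of which 1 rose and 2 fell, and -0.14 for 9 mitochondrial genes, of which 1 fell. The remaining 26 genes, assigned to other or several compartments, had an age median of -0.09, and 0 rose and 1 fell. Beside these, 5.4% of all genes rose and 7.01% fell with age.

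Levels ran from Hsp90ab1 and Hspa8 of the cytosol down to Dnajc6. Per kilobase of transcript and averaged over 15 libraries, Hsp90ab1 stood at 9738 normalised reads and Hspa8, the constitutive cytosolic Hsp70, at 4907. Hsp90b1 and Hspa5 of the ER stood at 3583 and 2978 on the same scale, and Hspd1 and Hspe1 of mitochondria at 2027 and 1615. Cct2 was the highest of the CCT subunits found by name, at 1565 per kilobase. The lowest of the 76 was Dnajc6 (auxilin, which uncoats clathrin vesicles) at 5.53 per kilobase. Within groups the chaperones were mostly steady: the median standard deviation of log2 values was 0.22 over the 76 and 0.27 over all genes tested. Dnajc14 (0.08) and Dnajc5 (0.08) varied least, while Hspa1b (1.35) and Hspa1a (1.31) lay at the 98.5 and 98.4 percentiles of all genes.

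Some heat-inducible cytosolic genes were high in 2 young libraries. The 6 described here, some of them picked after their values were seen, were all higher in 6-month control replicates 4 and 5 than in the other 6-month controls. Hspa1b had 795, 269.7, 386, 1298 and 651 normalised reads in canagliflozin ovaries, 717, 1009, 354, 1474 and 359.5 in 12-month controls and 603, 541, 605, 6566 and 7455 in 6-month controls, in the order of replicates 1 to 5. Hspa1a had 546, 180.3, 291, 1011 and 448 in canagliflozin ovaries, 434, 736, 279, 956 and 254 in 12-month controls and 284, 357, 356, 3418 and 3702 in 6-month controls. These near-identical genes encode the stress-induced cytosolic Hsp70, and in 12-month ovaries of either treatment neither exceeded 1474 normalised reads. Hsph1 had 1403, 897, 1041, 1810.1 and 1721 in canagliflozin ovaries, 1452, 1285, 1297, 2198 and 1422 in 12-month controls and 966, 584, 793, 2463 and 3202 in 6-month controls. Dnajb1 had 927, 706, 1798, 1289 and 1224 in canagliflozin ovaries, 875, 868, 838, 1213 and 828 in 12-month controls and 937, 604, 777, 1581 and 1891 in 6-month controls. Hsph1 is the inducible Hsp110 exchange factor and Dnajb1 the inducible J-protein of Hsp70, and both were highest of their group in the same pair of young libraries. Hsp90aa1 had 4987, 2805, 4293, 4334 and 3902 in canagliflozin ovaries, 3405, 3549, 3828, 4009 and 3288 in 12-month controls and 2628, 2214, 2360.0, 4129.8 and 4816 in 6-month controls. Dnaja1 had 2638, 2338, 2630.2, 3412 and 3351 in canagliflozin ovaries, 3046, 2322, 2299, 3658 and 2156 in 12-month controls and 2397, 1854, 1897, 3556 and 4345 in 6-month controls. Hsp90aa1 is the inducible cytosolic Hsp90 and Dnaja1 a general J-protein. In 12-month controls, replicate 4 was the highest of its group for each of these 6 genes. The order of 6-month controls was not particular to these 6 genes. Dnajb4 had 813 and 758 normalised reads in 6-month control replicates 4 and 5, against 521 to 663 in the others. Dnajb2, Dnajc7, Hsp90ab1 and the ER genes Hspa5 and Hsp90b1 were also highest of their group in that pair. Some heat-inducible or cytosolic genes did not share it: in 6-month controls Hspb1 had 161, 224, 389.6, 384 and 391, Dnaja4 had 729, 412, 552, 652 and 1038 and the constitutive Hspa8 had 8525, 6348, 11515, 10342 and 18498 normalised reads. Hspb1 and Dnaja4 thus had replicate 4 within the range of the other 4 libraries, and Hspa8 was high in replicate 5 only.

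**Figure D2:**
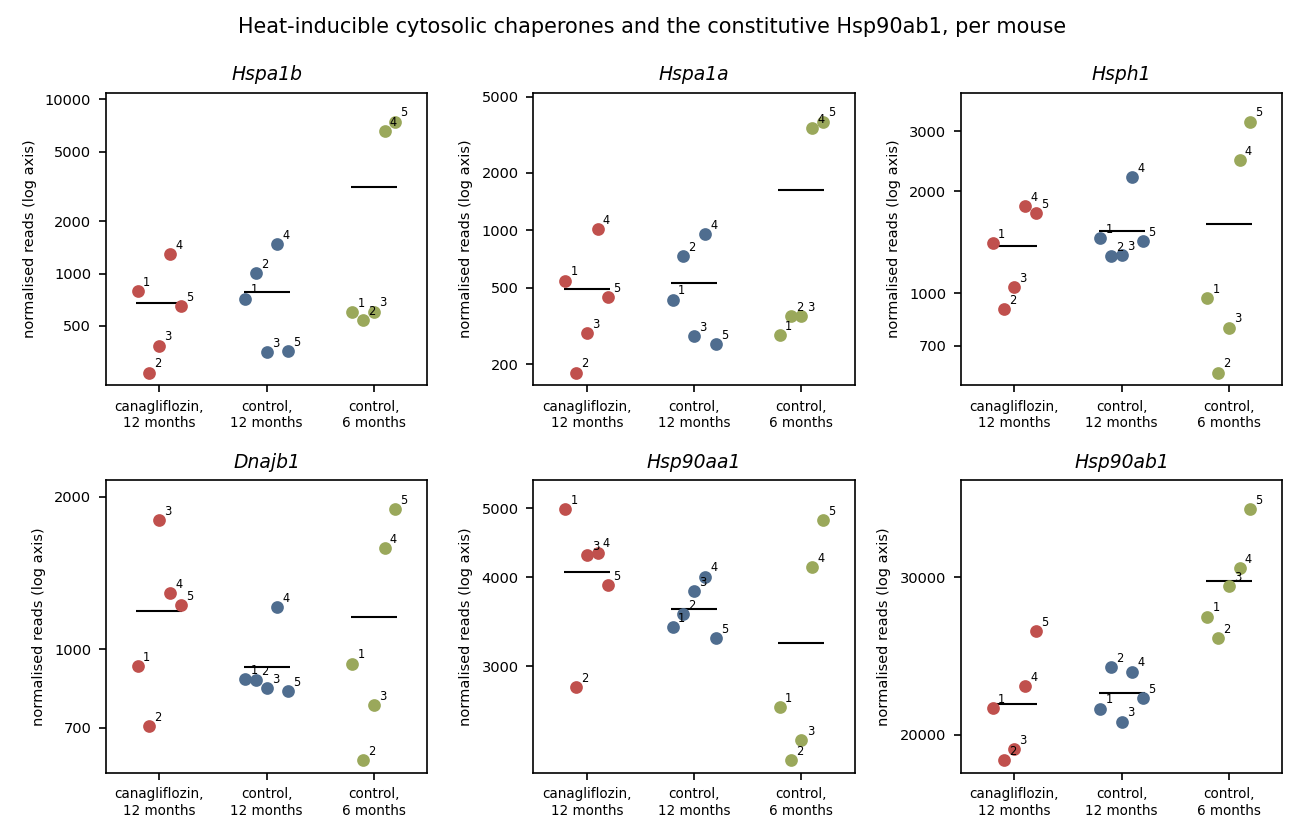
Normalised reads (log axes, which differ between panels) of 5 heat-inducible chaperones and of Hsp90ab1 in each ovary, by group, with replicate numbers beside the points and the group mean as a bar. For Hspa1b, 6-month control replicates 4 and 5 lie at 6566 and 7455, and the other 13 ovaries at 269.7 to 1474.

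None of Hspa1b, Hspa1a, Hsph1, Dnajb1, Hsp90aa1 and Dnaja1 was called by limma in any comparison with all libraries. DESeq2 on the recovered reads called Hspa1b for canagliflozin over 6-month controls (-2.21, DESeq2 adjusted p = 0.0178), a comparison that uses the high pair of young libraries, and limma called Hsp90aa1 there without 6-month control replicate 5 (0.54, limma adjusted p = 0.0414). For 12-month over 6-month controls the log2 fold changes were -1.23 (limma adjusted p = 0.348) for Hspa1b and -0.88 (limma adjusted p = 0.501) for Hspa1a, with standard errors of 0.80 and 0.77. Without 6-month control replicates 4 and 5 together, an alternative chosen after seeing the data, they turned to 0.20 (limma adjusted p = 0.856) and 0.49 (limma adjusted p = 0.617). Hsph1 moved to 0.97 without both, against 0.22 (limma adjusted p = 0.767) with them, and Hsp90aa1 to 0.59, against 0.23 (limma adjusted p = 0.491). Both libraries were left out for these genes' own values, so no call is read from the values without them. For canagliflozin over 12-month controls, which uses neither library, Hspa1b stood at -0.19 (limma adjusted p = 0.952), Hsph1 at -0.18 (limma adjusted p = 0.902), Dnajb1 at 0.31 (limma adjusted p = 0.745) and Hspa8 at 0.08 (limma adjusted p = 0.938). Markers of tissue handling (immediate-early genes) summed to 15492 and 9151 normalised reads in 6-month control replicates 4 and 5. In 6-month control replicates 1 to 3 these markers summed to 26403, 17131 and 9967, so that replicate 5 was the lowest of its group. Their part in the heat-inducible values was not tested.

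Start-site windows of Hspa1a, Hspa1b and Hsph1, and of the mitochondrial Hspe1, are shown because they hold a known promoter element of heat-inducible genes. They were picked for holding it: the Dnajb1 windows hold neither form of it, and that of Dnaja1 is not shown. RefSeq (GRCm38.p6) promoter windows, 250 bases before to 50 after the start, were at hand for 58 of the 76 genes, with 1 window shown per gene. Capitals mark heat shock element units, GAANNTTC or TTCNNGAA, on either strand, overlapping matches joined. chr17:34959189-34959488 and chr17:34972107-34972406 lie on the minus strand of the same chromosome, and each window is given 5′ to 3′ along its gene.
Hspa1b, chr17:34959189-34959488, minus strand: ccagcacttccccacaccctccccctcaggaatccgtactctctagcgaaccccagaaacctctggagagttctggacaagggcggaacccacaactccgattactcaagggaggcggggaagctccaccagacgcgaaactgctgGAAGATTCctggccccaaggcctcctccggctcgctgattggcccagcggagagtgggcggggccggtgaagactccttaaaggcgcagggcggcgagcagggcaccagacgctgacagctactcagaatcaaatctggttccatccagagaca
Hspa1a, chr17:34972107-34972406, minus strand: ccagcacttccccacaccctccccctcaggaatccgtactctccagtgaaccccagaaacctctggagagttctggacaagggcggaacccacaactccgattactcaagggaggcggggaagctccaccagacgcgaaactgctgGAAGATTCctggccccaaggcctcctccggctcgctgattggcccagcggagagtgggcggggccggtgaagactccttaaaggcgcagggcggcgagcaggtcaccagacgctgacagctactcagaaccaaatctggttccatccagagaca
Hsph1, chr5:149636266-149636565, minus strand: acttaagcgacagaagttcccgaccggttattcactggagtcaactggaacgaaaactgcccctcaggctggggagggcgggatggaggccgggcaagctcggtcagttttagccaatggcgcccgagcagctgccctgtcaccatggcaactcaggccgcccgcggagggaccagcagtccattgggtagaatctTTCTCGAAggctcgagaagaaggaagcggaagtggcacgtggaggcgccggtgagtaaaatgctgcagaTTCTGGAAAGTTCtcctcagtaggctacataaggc
Hspe1, chr1:55087898-55088197, plus strand: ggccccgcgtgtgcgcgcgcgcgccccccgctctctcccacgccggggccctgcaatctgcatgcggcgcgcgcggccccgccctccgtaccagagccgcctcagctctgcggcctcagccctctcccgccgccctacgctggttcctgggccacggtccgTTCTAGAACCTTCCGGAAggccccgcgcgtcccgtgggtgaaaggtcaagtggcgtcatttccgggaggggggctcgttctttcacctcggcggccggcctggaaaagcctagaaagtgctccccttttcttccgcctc
The Hspa1a and Hspa1b windows are 98.7% identical (296 of 300 bases), and their longest transcripts are 95.2% identical over 2685 aligned bases, so reads of the pair may be shared between them and their sum is the safer value. Summed, they stood at 449.9 to 2309 in canagliflozin ovaries, 614 to 2429 in 12-month controls and 887 to 11156 in 6-month controls. The 2-unit element was found in 15.1% of 32851 RefSeq windows and in those of 17 of the 58 genes, Hspa1a, Hspa1b, Hsph1, Dnaja1, Hspb1 and Hspb8 among them. A longer element of 3 alternating GAA and TTC units with 2 bases between each, which includes the shorter one, was found in 0.603% of windows and in those of 4 genes, Hsph1, Hspd1, Hspe1 and Dnajb6. The Hspe1 window, which holds it at 2 overlapping places, overlaps the opposite-strand start window of Hspd1 by 285 bases, so these neighbours share 1 match region. A match describes the letters of the window only.

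Hsp90ab1, the constitutive cytosolic Hsp90 and the most abundant member, fell with age. Hsp90ab1 had 21400.1, 23813, 20697, 23533 and 21986 normalised reads in 12-month controls, against 27106, 25632, 29296, 30701 and 35746 in 6-month controls, and the groups did not overlap. The means were 22286 ± 1349.8 in 12-month controls and 29696 ± 3905 in 6-month controls (SD, n = 5 each), with a log2 fold change of -0.41 (SE 0.12, limma adjusted p = 0.0346). Canagliflozin ovaries had 21423, 18739, 19262, 22656 and 26092, which overlapped the 12-month controls at -0.05 (limma adjusted p = 0.905). Without 6-month control replicates 4 and 5, where it was also highest, the age value was -0.29 (limma adjusted p = 0.198), and the length and GC correction gave -0.30 (limma adjusted p = 0.105). As a share of the cytosolic pair, Hsp90aa1 made up 13.0 to 18.9% in canagliflozin ovaries, 13.0 to 15.6% in 12-month controls and 7.46 to 11.9% in 6-month controls, a ratio chosen after its values were seen and not tested. All 12-month ovaries of both treatments lay above all 6-month ovaries in that share.

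Among Hsp70 genes, Hspa2 and Hspa12b fell with age. Hspa2 had 172, 256, 238, 227 and 208 normalised reads in canagliflozin ovaries, 169.9, 234, 194, 205 and 201 in 12-month controls and 303, 344, 318, 321 and 308 in 6-month controls. Hspa2 is best known as the Hsp70 of male germ cells. All 5 12-month controls lay below all 5 6-month controls, at 201 ± 23.0 against 319 ± 15.9 (SD, n = 5 each) and a log2 fold change of -0.67 (SE 0.11, limma adjusted p = 0.00164). The call held in all 28 alternatives run, with adjusted p of at most 0.0108. Hspa12b had 248, 296, 306, 316 and 351 normalised reads in canagliflozin ovaries, 264, 256, 282, 320.0 and 276 in 12-month controls and 373, 382, 317, 354 and 448 in 6-month controls. Hspa12b, an atypical Hsp70 found mainly in endothelium, had a log2 fold change of -0.42 (SE 0.11, limma adjusted p = 0.0209) for 12-month over 6-month controls. Of 10 endothelial markers, 2 fell with age and 0 rose, beside 7.01% and 5.4% of all genes. The age values of 4 markers were positive and of 6 negative, with a list median of -0.02 (log2). The sum of these markers ran from 5709.8 to 9036 in canagliflozin ovaries, 5987 to 6801 in 12-month controls and 6699 to 7471 in 6-month controls, with no marker at 0 in every library. Their part in the Hspa12b result was not tested. The Hspa12b value became -0.23 (limma adjusted p = 0.192) after length and GC correction and -0.35 (limma adjusted p = 0.0973) without 6-month control replicates 4 and 5.

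The other cytosolic Hsp70 and Hsp110 genes did not pass in either main comparison. Hspa8 had 15725, 7285, 13008, 16169 and 10215 in canagliflozin ovaries, 13604, 14006, 8363, 14816 and 7799.6 in 12-month controls and 8525, 6348, 11515, 10342 and 18498 in 6-month controls. Hspa8 thus varied within each group by more than the groups differed. Hspa4, Hspa4l and Hspa14 had log2 fold changes of -0.15, -0.19 and -0.06 for canagliflozin over 12-month controls and 0.07, 0.21 and -0.21 for 12-month over 6-month controls. Hspa4 and Hspa4l are Hsp110-type exchange factors and Hspa14 is a ribosome-associated Hsp70. Hspa14 did not overlap between ages (312 to 374 in 12-month controls, 375 to 435 in 6-month controls) but missed the threshold at a limma adjusted p of 0.119. It fell in canagliflozin ovaries against 6-month controls (-0.27, limma adjusted p = 0.0244).

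**Figure D3:**
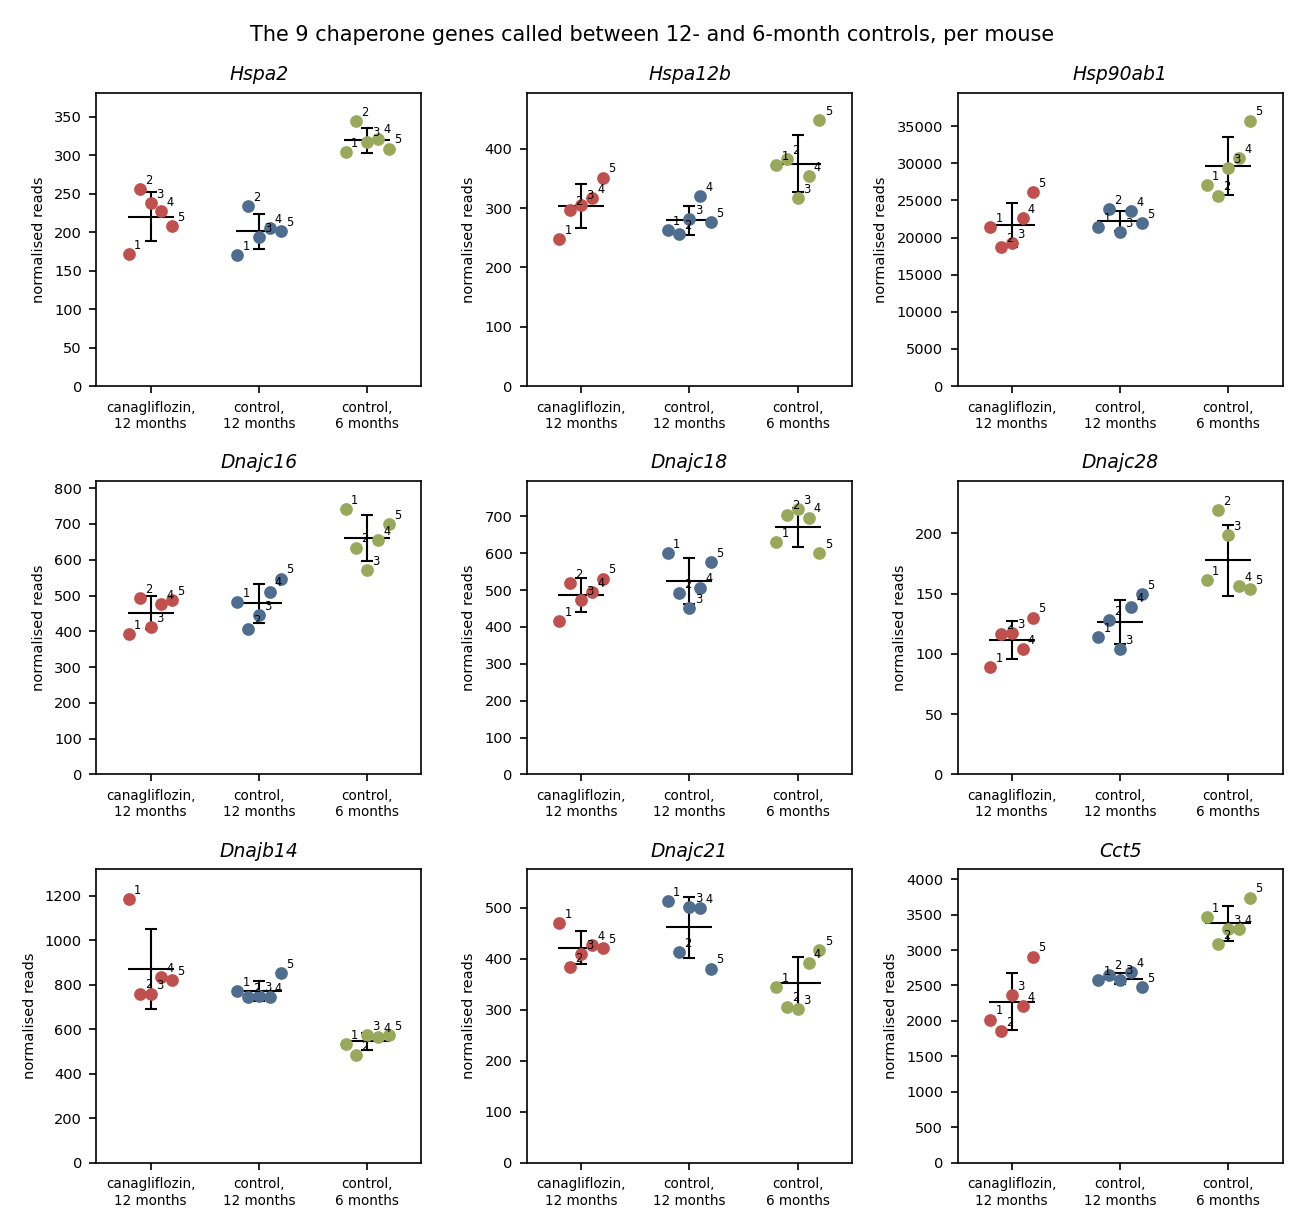
Normalised reads (linear axes from 0) of the 9 chaperone genes called between ages, per ovary and group, with the group mean and SD (n = 5) and replicate numbers. Canagliflozin ovaries overlap the 12-month controls in every panel, for example at 172 to 256 and 169.9 to 234 for Hspa2, against 303 to 344 in 6-month controls.

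Between ages, 4 of 26 Dnajc, 1 of 11 Dnajb and 0 of 4 Dnaja genes were called, beside 12.4% of all genes. Dnajb14, an ER membrane J-protein that works with cytosolic Hsp70, rose. Dnajb14 had 1188, 761, 758, 836 and 822 normalised reads in canagliflozin ovaries, 772, 745, 749.9, 743 and 852 in 12-month controls and 533, 484, 573, 564 and 575 in 6-month controls. It was 773 ± 45.8 in 12-month controls and 546 ± 38.3 in 6-month controls (SD, n = 5 each), with a log2 fold change of 0.50 (SE 0.11, limma adjusted p = 0.00746), and all 5 12-month controls exceeded all 5 6-month controls. The length correction gave 0.36 (limma adjusted p = 0.0524), and length with GC gave 0.23 (limma adjusted p = 0.254). Its paralogue Dnajb12 stood at -0.18 (limma adjusted p = 0.187). Dnajc21, which acts in maturation of the large ribosomal subunit, rose as well. Dnajc21 had 513, 412, 501, 499 and 380.3 normalised reads in 12-month controls, against 344, 306, 301, 391 and 416 in 6-month controls. Its groups overlapped, with a log2 fold change of 0.39 (SE 0.11, limma adjusted p = 0.0328) and, after length and GC correction, 0.30 (limma adjusted p = 0.103).

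Dnajc16, Dnajc18 and Dnajc28 fell with age. Dnajc16 had 392, 492, 412, 477 and 487 normalised reads in canagliflozin ovaries, 482, 407, 444, 511 and 547 in 12-month controls and 742, 634, 571, 655 and 699.9 in 6-month controls. For this ER membrane J-protein every 12-month control lay below every 6-month control, with a log2 fold change of -0.47 (SE 0.10, limma adjusted p = 0.00764), and the call held in all 28 alternatives. Dnajc18 had 601, 491, 452, 507 and 576 normalised reads in 12-month controls, against 630.4, 705, 719, 697 and 599.8 in 6-month controls. Dnajc18, another ER membrane J-protein, overlapped by 1 ovary and had a log2 fold change of -0.36 (SE 0.10, limma adjusted p = 0.0235). Dnajc28 had 114, 128, 104, 138 and 149 normalised reads in 12-month controls, against 161, 219, 199, 156 and 154 in 6-month controls. Dnajc28, a mitochondrial J-domain protein, had a log2 fold change of -0.48 (SE 0.15, limma adjusted p = 0.0400) with no overlap, and the length correction gave -0.42 (limma adjusted p = 0.0597). For canagliflozin over 12-month controls the same 3 genes stood at -0.08, -0.10 and -0.18 (log2), with limma adjusted p of 0.814, 0.735 and 0.698.

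How many fits without 1 ovary kept each age call differed by gene. Over all genes the 2179 age calls became 1537 to 1970 when any 1 control library was left out. A miss in such a fit thus does not alone show that a call rests on that ovary. For Dnajc28, at -0.48 with all libraries, the log2 fold change was -0.52 without 12-month control replicate 4. Without 6-month control replicate 2 it was -0.40, and both fits missed the call. Hspa2, Dnajc16 and Dnajb14 were called without each of the 15 libraries in turn. Cct5 was not called without 12-month control replicates 1 or 5 or 6-month control replicates 1 or 5 (limma adjusted p of 0.0541 to 0.0679). Hspa12b was not called without 12-month control replicate 1 or 6-month control replicates 2 or 5 (limma adjusted p of 0.0506 to 0.0585). The log2 fold change of these genes kept its sign throughout. Dnajc18 was not called without 12-month control replicates 2, 3 or 4 or 6-month control replicates 2, 3 or 4 (limma adjusted p of 0.0517 to 0.0621). Dnajc21 was not called without 12-month control replicates 1, 3 or 4 or 6-month control replicates 1, 2 or 3 (limma adjusted p of 0.0649 to 0.0899). Most of these misses lay just past the threshold. Dnajc28 was not called without 12-month control replicates 1, 2, 3 or 4 or 6-month control replicates 1, 2 or 3 (limma adjusted p of 0.0513 to 0.112). Hsp90ab1 was not called without 12-month control replicates 1, 3, 4 or 5 or 6-month control replicates 3, 4 or 5 (limma adjusted p of 0.0532 to 0.0920). Without 6-month control replicates 4 and 5 together, Cct5 (-0.34, limma adjusted p = 0.115) and Dnajc18 (-0.39, limma adjusted p = 0.0516) were not called either.

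The member with the smallest p for canagliflozin over 12-month controls was Dnajc27, a J-domain protein with a Ras-like GTPase domain. Dnajc27 had 103, 129.6, 144, 110.0 and 118 normalised reads in canagliflozin ovaries, 176, 187, 145, 151 and 175 in 12-month controls and 209, 234, 181, 217 and 169 in 6-month controls. Every canagliflozin ovary lay below every 12-month control. The log2 fold change was -0.46 (SE 0.13, limma adjusted p = 0.379), which did not pass. Against 6-month controls, canagliflozin ovaries were lower at -0.73 (limma adjusted p = 0.000740), and 12-month controls stood at -0.27 (limma adjusted p = 0.181) over 6-month controls. Of the other J-proteins in canagliflozin over 12-month controls, Dnajc6 had the largest positive value at 0.54 (limma adjusted p = 0.623), with 1 ovary at 83.4 and the other 4 at 25.6 to 35.0 normalised reads. Without that ovary, canagliflozin replicate 2, its value was 0.25. Dnajc15, which sits in the mitochondrial inner membrane, stood at -0.29 (limma adjusted p = 0.631).

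Dnajb13, a component of ciliary radial spokes, showed the largest positive age value. Dnajb13 had 441, 127, 229, 159.6 and 117 normalised reads in canagliflozin ovaries, 131, 198, 292, 98.4 and 223 in 12-month controls and 104, 77.2, 84.7, 64.4 and 109 in 6-month controls. The value for 12-month over 6-month controls was 1.01 (limma adjusted p = 0.0664), short of the threshold, and it passed without canagliflozin replicate 1 (1.01, limma adjusted p = 0.0220) and without 12-month control replicate 4 (1.22, limma adjusted p = 0.0359). Canagliflozin replicate 1 is in neither control group, so leaving it out changed the estimated spread and not the value. DESeq2 on the recovered reads called Dnajb13 between ages (1.11, DESeq2 adjusted p = 0.0151), as did limma fitted to these 2 groups alone. Canagliflozin ovaries exceeded 6-month controls at 1.12 (limma adjusted p = 0.0242). Markers of multiciliated cells, which line the oviduct, summed to 165 to 363, 151 to 457 and 116 to 196 normalised reads in canagliflozin ovaries, 12-month controls and 6-month controls. Of 8 such markers listed, 6 were found and 5 passed the filter. Of those 5, 1 rose with age, beside 5.4% of all genes, and the part of these markers in the Dnajb13 values was not tested. The 11 Dnajb genes together had a median of 0.13 for canagliflozin over 12-month controls (7 positive, 4 negative, 0 called) and 0.12 for age (7 positive, 4 negative, 1 called). Summed over all 11, they gave 7945 ± 685 in canagliflozin ovaries, 7343 ± 340.0 in 12-month controls and 7039 ± 914 in 6-month controls (SD, n = 5 each).

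Among the 7 CCT subunits found by name, Cct2 to Cct8, Cct5 alone was called between ages. Cct5 had 2019, 1852, 2369.8, 2208 and 2907 normalised reads in canagliflozin ovaries, 2576, 2655, 2584, 2694 and 2483 in 12-month controls and 3463, 3079.7, 3299, 3295 and 3739.7 in 6-month controls. Cct5 fell in 12-month against 6-month controls with a log2 fold change of -0.37 (SE 0.10, limma adjusted p = 0.0265), and the groups did not overlap. The other 6 of these subunits had age values of -0.12 to 0.01 (log2), none called, the nearest being Cct2 (-0.12, limma adjusted p = 0.403) and Cct4 (-0.12, limma adjusted p = 0.410). The ring is built from subunits in equal number, so each ovary also gives a ratio. As a percentage of the mean of Cct2, Cct3, Cct4, Cct6a, Cct7 and Cct8, Cct5 made up 71.8, 91.3, 95.1, 93.7 and 110.0% in canagliflozin ovaries, 108, 96.7, 105, 104 and 109% in 12-month controls and 128, 131, 131, 131 and 131% in 6-month controls. The 6-month ovaries lay between 128 and 131% and above all 10 older ovaries. This ratio was chosen after its values were seen and was not tested.

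**Figure D4:**
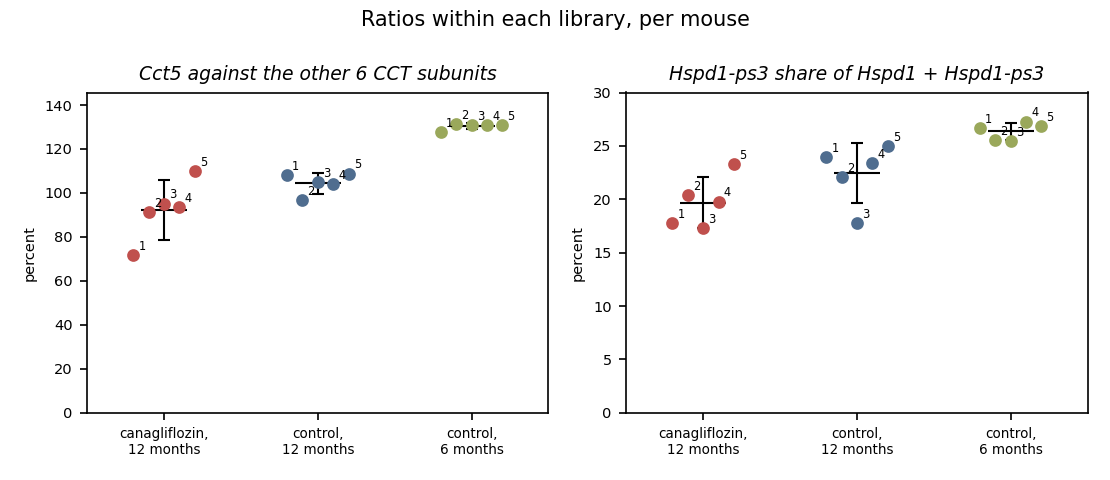
Ratios within each ovary, in percent on linear axes from 0, by group, with mean and SD (n = 5). Left, Cct5 over the mean of the other 6 CCT subunits found by name, at 71.8 to 110.0% in canagliflozin ovaries, 96.7 to 109% in 12-month controls and 128 to 131% in 6-month controls. Right, the share of Hspd1-ps3 in Hspd1 and Hspd1-ps3 together, at 17.3 to 23.3% in canagliflozin ovaries, 17.8 to 25.0% in 12-month controls and 25.5 to 27.3% in 6-month controls.

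For canagliflozin over 12-month controls Cct5 stood at -0.21 (limma adjusted p = 0.552), and canagliflozin ovaries were below 6-month controls at -0.59 (limma adjusted p = 0.000844), as the plot of ratios also shows. The Cct5 age value was -0.33 (limma adjusted p = 0.0635) after length and GC correction. The 7 subunits summed to 17067 ± 2005 normalised reads in canagliflozin ovaries, 17555 ± 1150.0 in 12-month controls and 18910.0 ± 1425 in 6-month controls (SD, n = 5 each). Tcp1, the remaining subunit of the ring, is outside the rule on names and not in this sum, and it stood at -0.00 (limma adjusted p = 0.995) for canagliflozin over 12-month controls and 0.01 (limma adjusted p = 0.961) for age. For canagliflozin over 12-month controls the other 6 subunits found by name ran from -0.17 (Cct6a) to 0.05 (Cct7), none called.

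Small heat shock proteins had the lowest family median with age, though limma called none of the 6. DESeq2 on the recovered reads called Hspb6 (-0.83, DESeq2 adjusted p = 0.0380) and Hspb8 (-0.71, DESeq2 adjusted p = 0.0205) between ages. Hspb8 had 545, 358, 415, 599 and 390.3 normalised reads in canagliflozin ovaries, 467, 900.4, 542, 631 and 604 in 12-month controls and 574, 802, 1169.8, 1275 and 1350.3 in 6-month controls. Hspb8, which with Bag3 routes misfolded proteins to autophagy, stood at -0.68 (limma adjusted p = 0.0690) for 12-month over 6-month controls and -0.44 (limma adjusted p = 0.571) for canagliflozin over 12-month controls, and fell in canagliflozin ovaries against 6-month controls (-1.12, limma adjusted p = 0.00258). Hspb6 had 116, 61.1, 69.1, 99.1 and 123 in canagliflozin ovaries, 100.2, 73.7, 48.6, 62.6 and 80.8 in 12-month controls and 83.4, 139, 221, 73.8 and 134 in 6-month controls. Hspb7 had 18.3, 26.8, 41.4, 60.5 and 36.0 in canagliflozin ovaries, 19.1, 73.7, 26.6, 26.7 and 18.2 in 12-month controls and 33.2, 59.0, 69.2, 49.2 and 37.7 in 6-month controls. Hspb6 and Hspb7 are muscle-rich members, and their age values were -0.75 (limma adjusted p = 0.103) and -0.73 (limma adjusted p = 0.215). Without 12-month control replicate 2, the highest of its group for both, Hspb8 (-0.82, limma adjusted p = 0.0332) and Hspb7 (-1.07, limma adjusted p = 0.0394) passed, and so did Hspb8 without 6-month control replicate 1 (-0.88, limma adjusted p = 0.0152). Hspb1 (Hsp27), Hspb2 and Hspb11, the last an intraflagellar transport protein, had age values of -0.09, 0.01 and -0.12 (log2). Smooth muscle and pericyte markers summed to 11600.2 to 21422 in canagliflozin ovaries, 11915 to 19026 in 12-month controls and 19396 to 25294 in 6-month controls. Of these 12 markers 5 fell with age while 0 rose, beside 7.01% and 5.4% of all genes, none being at 0 in every library. Their part in the small heat shock protein values was not tested.

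In the ER lumen, Hspa5, Hsp90b1 and Dnajb11 were highest in the same canagliflozin ovaries. Hspa5 had 14609, 6396, 14918, 8859 and 9099.5 normalised reads in canagliflozin ovaries, 13399, 13554, 7878, 14947 and 10320.4 in 12-month controls and 9023, 9327, 8284, 12300.4 and 11141 in 6-month controls. Hsp90b1 had 16527, 7077, 14634, 8607 and 8207 in canagliflozin ovaries, 11379, 12295, 8074, 11788 and 9488 in 12-month controls and 7929.6, 8566, 8434, 10104 and 8726 in 6-month controls. Dnajb11 had 1605, 1050.3, 1694, 1404 and 1083 in canagliflozin ovaries, 1455, 1431, 1243, 1374 and 1226 in 12-month controls and 1104, 1163, 1164, 1189.5 and 1083 in 6-month controls. Hspa5 is the ER Hsp70, Hsp90b1 the ER Hsp90 and Dnajb11 the J-protein that hands nascent clients to Hspa5. Canagliflozin replicates 1 and 3 were the highest of their group for all 3 genes, and 12-month control replicate 3 was lowest of its group for Hspa5 and Hsp90b1. The same canagliflozin libraries had the highest granulosa marker sums of their group (82995 and 77557, against 37589 to 51892 in the other 3), whereas 12-month control replicate 3 had the highest sum of its group, 75211, and the part of these markers was not tested. Other genes of the lumen did not follow: in canagliflozin ovaries Hspa13 was lowest in replicate 1, at 410.1, and Dnajc10 lowest in replicate 3, at 953. None of the 3 passed: for canagliflozin over 12-month controls they stood at -0.19 (limma adjusted p = 0.797), -0.01 (limma adjusted p = 0.990) and 0.00 (limma adjusted p = 0.998), and for 12-month over 6-month controls at 0.24 (limma adjusted p = 0.531), 0.26 (limma adjusted p = 0.440) and 0.24 (limma adjusted p = 0.222). All 5 12-month controls exceeded all 5 6-month controls for Dnajb11, at 1346 ± 106 against 1141 ± 45.0 (SD, n = 5 each). Against 6-month controls, canagliflozin ovaries without replicate 2 rose for Dnajb11 (0.32, limma adjusted p = 0.0424), which was not called with all libraries (0.23, limma adjusted p = 0.159). The 6 B and plasma cell markers listed summed to 313 to 494 normalised reads in canagliflozin ovaries, 184 to 535 in 12-month controls and 40.9 to 51.7 in 6-month controls. Of these, 3 passed the filter and were tested, and 2 rose with age. The 8 T and NK cell markers listed summed to 82.1 to 255, 119 to 228 and 41.6 to 76.3 in the same groups, and of the 4 tested 2 rose with age. Beside these, 5.4% of all genes rose. Markers low in 6-month controls could pass the filter through the 12-month groups, so no support is drawn from these counts. None of either list's tested markers was at 0 in every library, and their part in the ER values was not tested.

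**Figure D5:**
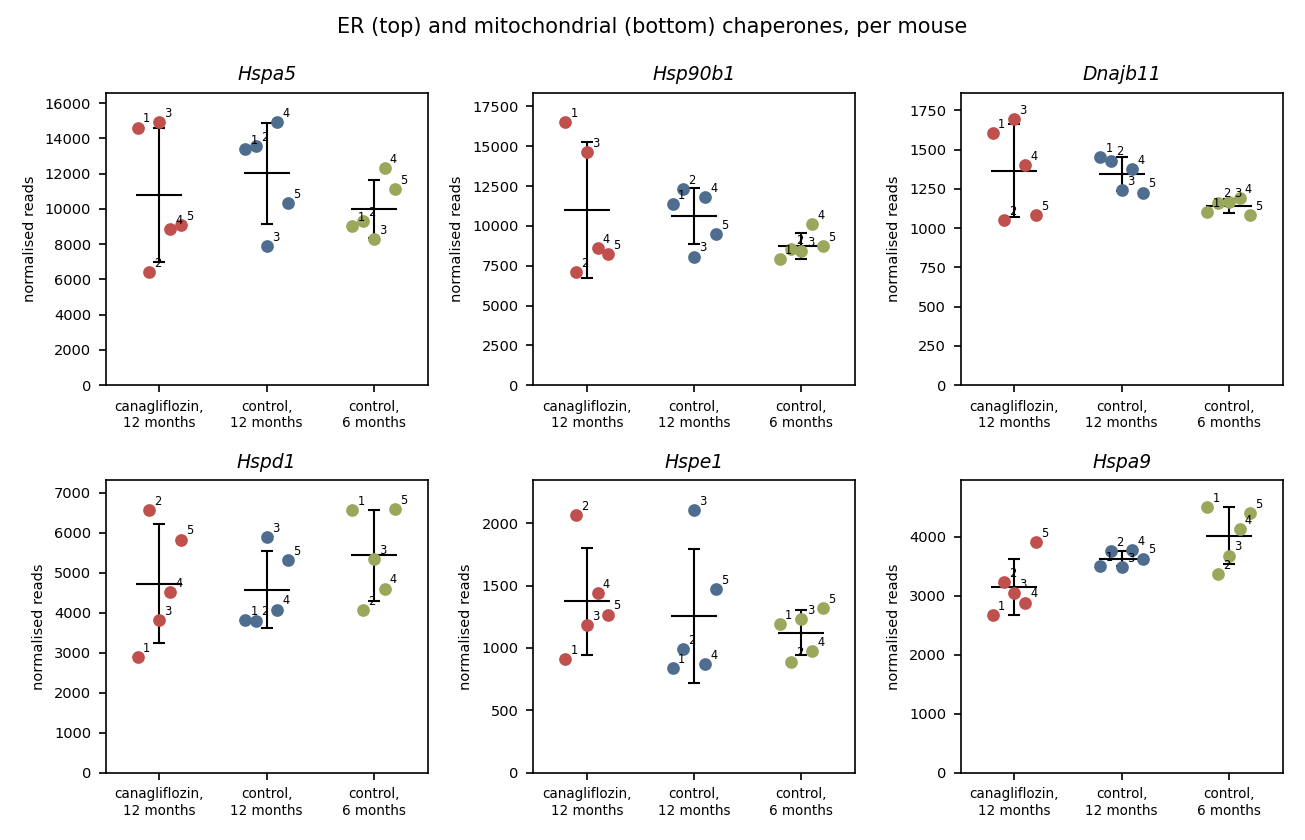
Normalised reads (linear axes from 0) per ovary of ER chaperones (top row) and mitochondrial chaperones (bottom row), by group, with mean and SD (n = 5) and replicate numbers. Groups overlap in each panel except 12-month and 6-month controls for Dnajb11 (1226 to 1455 and 1083 to 1189.5).

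Hspa5 and Hsp90b1 are textbook targets of the unfolded protein response, and their windows (RefSeq, GRCm38.p6) hold its promoter element, which is why they are shown. Capitals mark the ER stress response element, CCAAT and CCACG with 9 bases between them, on either strand.
Hspa5, chr2:34771840-34772139, plus strand: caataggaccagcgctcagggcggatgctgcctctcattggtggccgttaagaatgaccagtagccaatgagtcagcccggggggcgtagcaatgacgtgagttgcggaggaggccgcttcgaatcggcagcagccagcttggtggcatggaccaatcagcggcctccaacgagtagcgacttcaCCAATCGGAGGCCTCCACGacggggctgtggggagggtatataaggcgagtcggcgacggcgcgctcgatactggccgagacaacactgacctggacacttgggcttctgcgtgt
Hsp90b1, chr10:86705395-86705694, minus strand: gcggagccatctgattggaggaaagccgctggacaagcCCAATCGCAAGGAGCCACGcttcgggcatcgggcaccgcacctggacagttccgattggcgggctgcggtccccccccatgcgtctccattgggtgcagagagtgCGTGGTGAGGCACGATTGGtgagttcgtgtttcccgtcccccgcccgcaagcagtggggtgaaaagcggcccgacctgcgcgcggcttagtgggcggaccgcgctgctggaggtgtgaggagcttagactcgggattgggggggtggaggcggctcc
The element was found in 0.119% of 32851 windows, and among the 58 chaperone genes matched in those of Hspa5, Hsp90b1 and Dnajc3. Dnajc3 (p58IPK), which assists Hspa5 and restrains the kinase PERK, had a value of -0.23 for canagliflozin over 12-month controls (SE 0.10, limma adjusted p = 0.523) and 0.26 (limma adjusted p = 0.113) for 12-month over 6-month controls. Dnajc3 had 1358, 1603, 1719, 1441 and 1270.0 normalised reads in canagliflozin ovaries, 1867, 1761, 1415, 1711 and 1916 in 12-month controls and 1482, 1399.9, 1401, 1623 and 1334 in 6-month controls. Those groups overlapped in both comparisons. Dnajb9, another target that keeps the sensor Ern1 inactive, stood at -0.08 (limma adjusted p = 0.888) and -0.23 (limma adjusted p = 0.382) in the same order, Dnajc10, an ER disulfide reductase, at -0.12 and -0.02, and Hspa13 at -0.24 and 0.10. Dnajc1, a ribosome-bound ER J-protein, rose in canagliflozin ovaries against 6-month controls (0.33, limma adjusted p = 0.00907) and was not called in the other comparisons (0.15 and 0.17). Dnajc14, of the ER membrane, fell in canagliflozin ovaries against 6-month controls (-0.26, limma adjusted p = 0.0114) and did not overlap between ages (936 to 1026 in 12-month and 1057 to 1167 in 6-month controls, limma adjusted p = 0.0911). DESeq2 on the recovered reads called Dnajc14 between ages (-0.18, DESeq2 adjusted p = 0.0334).

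In mitochondria, Hspd1 and Hspe1 varied widely within each group, as the plot of ER and mitochondrial genes shows. Hspd1 had 2894, 6566, 3819, 4517 and 5827 normalised reads in canagliflozin ovaries, 3806, 3802, 5893, 4075 and 5306 in 12-month controls and 6559.8, 4071, 5337, 4599.5 and 6589 in 6-month controls. Hspe1 had 913, 2065, 1186, 1439 and 1267 in canagliflozin ovaries, 841, 989.6, 2104, 872 and 1469 in 12-month controls and 1191, 891, 1234, 974 and 1319 in 6-month controls. Hspd1 forms the folding chamber and Hspe1 its lid, and the 2 genes were highest in canagliflozin replicate 2 and 12-month control replicate 3 of their groups. Hspa9 had 2675, 3234, 3049.5, 2885 and 3906 in canagliflozin ovaries, 3509.6, 3764, 3492, 3771 and 3633 in 12-month controls and 4507, 3367, 3682, 4129.8 and 4399.9 in 6-month controls. Hspa9, the mitochondrial Hsp70 that pulls proteins through the import pore, stood at -0.22 (limma adjusted p = 0.548) for canagliflozin over 12-month controls and -0.14 (limma adjusted p = 0.440) for age, and fell in canagliflozin ovaries against 6-month controls (-0.35, limma adjusted p = 0.0212). Hspd1 stood at 0.01 (limma adjusted p = 0.993) and -0.25 (limma adjusted p = 0.488), and Hspe1 at 0.17 (limma adjusted p = 0.837) and 0.08 (limma adjusted p = 0.867), for canagliflozin over 12-month controls and for age. Corpus luteum marker sums were 167805, 457547, 286336, 393544 and 322412 in canagliflozin replicates 1 to 5, so that replicate 2 was the highest and replicate 1 the lowest, as for Hspd1 and Hspe1. In 12-month controls the highest sum was in replicate 1, at 370598, not in replicate 3, and the part of these markers was not tested.

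Among mitochondrial J-proteins, Dnajc19, which stimulates Hspa9 at the import motor, did not overlap between ages at 161 to 203 normalised reads in 12-month controls and 116 to 157 in 6-month controls (0.33, limma adjusted p = 0.170). Canagliflozin ovaries had 270.2, 192, 196, 252 and 146 and rose against 6-month controls (0.53, limma adjusted p = 0.0166). Dnajc15, which is related to Dnajc19, fell in the same comparison (-0.63, limma adjusted p = 0.0179) and stood at -0.34 (limma adjusted p = 0.245) between ages. Dnaja3, the J-protein of the matrix, fell against 6-month controls as well (-0.28, limma adjusted p = 0.0374). After length and GC correction Dnajc19 (0.40, limma adjusted p = 0.0672) and Dnaja3 (-0.18, limma adjusted p = 0.160) were not called, and Dnaja3 missed the threshold when any of 6 single libraries was dropped. Dnajc11, of the outer membrane and cristae complexes, and Dnajc30, a partner of the ATP synthase, were not called in any comparison, with values for canagliflozin over 12-month controls of 0.01 and 0.28.

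Pseudogene rows need their parent genes beside them. Hspd1-ps3 and Hspd1 transcripts are 99.0% identical over 1722 aligned bases, so reads may have been split between them. Hspd1-ps3 had 624, 1682, 797, 1114 and 1768 normalised reads in canagliflozin ovaries, 1197, 1079, 1277, 1246 and 1768 in 12-month controls and 2383, 1397, 1822, 1726 and 2423 in 6-month controls. The sum of both was 3518 to 8248 in canagliflozin ovaries, 4881 to 7169.5 in 12-month controls and 5468 to 9012 in 6-month controls, overlapping throughout. The share of Hspd1-ps3 in it was lower in every older ovary than in every 6-month ovary, a description with no test. Hspd1-ps3, Hspa9-ps1 and Cct3-ps1 fell in canagliflozin ovaries against 6-month controls (-0.79, limma adjusted p = 0.0336, -0.83, limma adjusted p = 0.0345, and -0.84, limma adjusted p = 0.0243), and Dnajc19-ps rose (0.63, limma adjusted p = 0.0161), the direction of Hspa9 and Dnajc19 themselves, whereas Cct3 stood at -0.03 (limma adjusted p = 0.843). Cct3-ps1 lay near the filter, at 3.97 to 9.01 normalised reads in canagliflozin ovaries and 11.8 to 18.8 in 6-month controls. Every library in which it reached 10 was a control, so it was tested only through groups where it is higher. No support is drawn from its fall, which is counted among the lower genes of that comparison. The Dnajc19-ps value became 0.22 (limma adjusted p = 0.241) after length and GC correction. For canagliflozin over 12-month controls Hspe1-ps2 had the largest positive value of the 76 (0.59, limma adjusted p = 0.730) at 1.22 to 14.9 normalised reads in canagliflozin ovaries and 1.91 to 10.3 in 12-month controls, close to the filter. Among the 71 chaperone genes other than pseudogenes, 0 were called for canagliflozin over 12-month controls, 2 rose and 7 fell with age, and 9 rose and 14 fell in canagliflozin ovaries against 6-month controls. Of all genes tested, 5.4% rose and 7.01% fell with age, and 13.5% rose and 14.9% fell in canagliflozin ovaries against 6-month controls.

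The remaining genes called between canagliflozin ovaries and 6-month controls were J-proteins. Dnajc17 and Dnajc8, J-proteins of the splicing machinery, rose at 0.54 (limma adjusted p = 0.0486) and 0.22 (limma adjusted p = 0.0420). Dnajc7, which links Hsp70 and Hsp90, rose at 0.35 (limma adjusted p = 0.0385) with 2833 ± 437 in canagliflozin ovaries, 2771 ± 323 in 12-month controls and 2217 ± 281 in 6-month controls (SD, n = 5 each). Dnajb2 and Dnajb6, J-proteins that hold aggregation-prone clients, rose at 0.46 (limma adjusted p = 0.0345) and 0.25 (limma adjusted p = 0.0237), and Dnajb4 fell at -0.37 (limma adjusted p = 0.0428). In this comparison the genes called for age took log2 fold changes as follows: Hspa2 -0.54, Hsp90ab1 -0.46, Dnajc16 -0.55, Dnajc18 -0.46, Dnajc28 -0.67 and Dnajb14 0.66, all called, and Hspa12b (-0.30, limma adjusted p = 0.0513) and Dnajc21 (0.27, limma adjusted p = 0.0854), not called. Of the 27, 14 were called without each library in turn. The other 13 each missed the threshold in at least 1 such fit, with limma adjusted p of up to 0.123 (Dnajc17). Dnajc17 missed it in 12 of these 15 fits, Dnajc8 and Dnajb4 in 10 each, Dnajc7 in 7, Dnajb2 in 6 and Dnajb6 in 2. After length and GC correction Dnajc8 (0.12, limma adjusted p = 0.22) was not called, whereas Dnajc17, Dnajc7, Dnajb2, Dnajb6 and Dnajb4 were. The count of chaperone calls was 17 without canagliflozin replicate 1 or replicate 4. Without 6-month control replicates 4 and 5 it was 15, of which 12 were among the 27. In a fit of these 2 groups alone it was 17.

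Partners of the chaperones were taken from lists of known pathway genes. None of 16 Hsp90 co-chaperones, 12 Hsp70 exchange and partner proteins, 11 genes of the prefoldin and Tcp1 list, 18 ER folding enzymes, 20 genes of the unfolded protein response, 16 mitochondrial import and quality-control genes and 13 heat shock factors and other heat-induced genes was called for canagliflozin over 12-month controls, beside 0.00569% of all genes. Their medians were 0.02, -0.02, 0.15, 0.06, -0.04, -0.02 and 0.10 in that order, beside 0.00 over all genes. The smallest p values belonged to Hmox1 (0.44, limma adjusted p = 0.462), the heme-degrading enzyme, Stub1 (0.37, limma adjusted p = 0.468), the ubiquitin ligase of Hsp70 and Hsp90 clients, Sugt1 (0.18, limma adjusted p = 0.514), Canx (-0.23, limma adjusted p = 0.521) and Pfdn6 (0.37, limma adjusted p = 0.523).

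For 12-month over 6-month controls, 1 of 16 Hsp90 co-chaperones rose, Cdc37l1, at 1022 ± 138 against 721 ± 84.2 (0.50, limma adjusted p = 0.00574), and 0 fell (SD, n = 5 each, here and below). Of 12 Hsp70 partners 1 fell, Bag6, which holds hydrophobic clients in the cytosol, at 3925 ± 277 in 12-month and 5273 ± 115 in 6-month controls (-0.43, limma adjusted p = 0.00205). Bag3, the Hspb8 partner, stood at -0.45 (limma adjusted p = 0.0630). Among 11 genes of the prefoldin and Tcp1 list, which feed or form CCT, Pdcl3, a phosducin-like co-factor of CCT, alone rose (0.22, limma adjusted p = 0.0477), with 9 of 11 positive. Of 18 ER folding enzymes 1 rose, the prolyl isomerase Fkbp2, at 724 ± 123 in 12-month and 464 ± 58.5 in 6-month controls (0.63, limma adjusted p = 0.0418), with a list median of 0.18. The unfolded protein response list had 3 of 20 up and 2 down: Sel1l (0.31, limma adjusted p = 0.0228), Derl2 (0.27, limma adjusted p = 0.0455) and Edem1 (0.44, limma adjusted p = 0.0233), all of ER-associated degradation, rose, and the sensor Ern1 (-0.47, limma adjusted p = 0.0494) and the stress-induced Sesn2 (-0.52, limma adjusted p = 0.0203) fell. The mitochondrial list had 2 of 16 down, Trap1 (-0.30, limma adjusted p = 0.0465), the mitochondrial Hsp90, and the protease subunit Clpx (-0.29, limma adjusted p = 0.0320), and 0 up. Of 13 heat shock factors and other heat-induced genes 0 were called, beside 12.4% of all genes.

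Canagliflozin ovaries against 6-month controls gave more calls in these lists. In the 11 genes of the prefoldin and Tcp1 list 6 rose, led by Pfdn6 (0.72, limma adjusted p = 0.00367) and Pfdn5 (0.68, limma adjusted p = 0.00416), and 1 fell, Pdcl (-0.45, limma adjusted p = 0.0110). In 16 Hsp90 co-chaperones 4 rose, among them Stub1 (0.55, limma adjusted p = 0.00634) and Ptges3 (0.41, limma adjusted p = 0.0183), and 1 fell, Cdc37 (-0.42, limma adjusted p = 0.00326), the kinase-specific co-chaperone. Of 18 ER folding enzymes 2 rose, Fkbp2 (0.98, limma adjusted p = 0.00172) and the translocon subunit Sec61b (0.44, limma adjusted p = 0.0253), and Txndc5 fell. Of 20 genes of the unfolded protein response 4 rose, Derl2, Edem1, Sel1l and Atf4, and 2 fell, Ern1 (-0.72, limma adjusted p = 0.00216) and Atf6b. Of 12 Hsp70 partners 0 rose and 2 fell, of 16 mitochondrial genes 1 rose and 2 fell, and of 13 heat shock factors and other heat-induced genes 2 rose and 1 fell. These counts stand beside 28.4% of all genes called, and the comparison shares its libraries with those above.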

How the data were processed

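RNA-seq was made from 15 UM-HET3 mouse ovaries, 5 per group as the labels give them. The deposited table holds, for each gene and library, a signal, in which the authors scaled each library's whole gene-level reads by a single factor. The submitters' processing notes name Partek (version 11.0) and mm39. The aligner, counter, annotation and scaling were not given in the sources used here. All values were whole multiples of the library's smallest value (100% within 0.1 of a whole number), and this smallest value stood clear of 1 in 12 libraries and near 1 in 3. Scaling leaves gene length, base composition and the counting of near-identical copies uncorrected.

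Genes with at least 10 in at least 5 libraries were kept (17569 of 24656). Log2(value + 1) was fitted with limma (version 3.58.1, R 4.3.3, trend and robust) over the 3 groups in 1 fit, and p-values were adjusted by Benjamini-Hochberg over all genes tested. Fold changes on this scale understate the change of low genes. The alternatives were other pseudocounts and filters, TMM scaling, length and GC correction, edgeR (version 4.0.16) and DESeq2 (version 1.42.0) on the recovered reads, a replicate term, and leaving out libraries. The fit was tested on simulated data.

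The chaperones and the lists of pathway and marker genes were chosen with earlier results of these data known. Genes named in the text were a set of major chaperones, every chaperone called in any comparison, the 3 highest of each family, the 5 largest changes each way per comparison, and called or lowest-p genes of each list. Other genes and all ratios were picked after their values were seen. Transcript lengths and GC content come from GENCODE transcripts and start-site windows from a RefSeq table, both of GRCm38.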

Additional observations from a re-analysis of the deposited data

Results flagged for a closer look

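In 159 groups of 5 ovaries over 53 named genes, 8 single values lay far from the other 4 by Dixon's criterion, where chance flags about 1 in 20 groups. In canagliflozin ovaries, replicate 1 had 1188 normalised reads of Dnajb14, above the 758 to 836 of the others, and replicate 2 had 83.4 of Dnajc6, above 25.6 to 35.0. Replicate 4 had 3.97 of Cct3-ps1, below 7.89 to 9.01. In 12-month controls, replicate 4 had 1213 of Dnajb1, above 828 to 875, and 2198 of Hsph1, above 1285 to 1452. Replicate 5 of the same group had 852 of Dnajb14, above 743 to 772, and 1768 of Hspd1-ps3, above 1079 to 1277. Replicate 2 had 73.7 of Hspb7, above 18.2 to 26.7. The paired high values of Hspa1a and Hspa1b in 6-month control replicates 4 and 5 are not among these, since the criterion compares a value with its nearest neighbour.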

How the results depend on the processing

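For canagliflozin over 12-month controls, 0 chaperones were called under every alternative run, including both count models and the replicate block. Over all genes that comparison had 1 call, against 2 without a filter, 3 with the replicate block, 9 with edgeR, 23 with edgeR on 12 libraries, 59 with DESeq2, 11 at an adjusted p under 0.1 and 0 with only these 2 groups, with length correction, with length and GC correction, and without 6-month control replicates 4 and 5. Leaving out single libraries gave 0 to 37, the highest without canagliflozin replicate 5. For age, the 9 chaperone calls became 14 with DESeq2, which added Dnajb13, Dnajc13, Dnajc14, Hspb6 and Hspb8. With only the 2 control groups they became 12, adding Dnajb11, Dnajb13 and Hspd1-ps3. They became 14 at an adjusted p under 0.1 and 7 with the replicate block (without Dnajc18 and Dnajc28). Without single libraries they became 4 to 10, the lowest without 12-month control replicate 1. Of the 9, 4 were still called with length and GC correction, 6 with length correction, 6 with edgeR on 12 libraries and 5 without 6-month control replicates 4 and 5. Length and GC correction also called Dnajc7 (0.41, limma adjusted p = 0.0417) and Dnajc17 (0.54, limma adjusted p = 0.0481) for age. Over all genes the 2179 age calls became 2956 with DESeq2, 1771 with length and GC correction and 1514 without 6-month control replicates 4 and 5. For canagliflozin over 6-month controls, the 27 became 17 with only these 2 groups, 15 without 6-month control replicates 4 and 5, 28 with the replicate block and 17 to 27 without single libraries. Over all genes the 4982 calls of that comparison became 4539 with only these 2 groups, 3469 without that pair and 4912 with the replicate block. Deviations of same-numbered ovaries from their group means had correlations of -0.298 to 0.249, of both signs. With 5 ovaries per group this check cannot exclude a modest effect shared by same-numbered ovaries.

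Signs turned for Hspa1a (0.49 for age and 0.34 for canagliflozin over 6-month controls) and Hspa1b (0.20 and 0.012) without 6-month control replicates 4 and 5. Without that pair the age value of Dnajb1 (-0.21) turned to 0.27. Signs also turned for Hsph1 between ages, at -0.066 with edgeR, -0.061 with DESeq2 and -0.065 to 0.55 without single libraries. For canagliflozin over 6-month controls Hsph1 (0.04) turned to -0.22 with edgeR and -0.21 with DESeq2, and Hspe1-ps2 (0.22) to -0.14 with length and -0.23 with length and GC correction. The age value of Dnajc19-ps (0.24) turned to -0.01 with length and GC correction. None of these values was called. The cause was not tested. Count totals of 8.47 to 13.6 M reads limit low members such as Hspe1-ps2 most.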
